A study of Saccharomyces cerevisiae with 9 samples.

Results

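The nuclear-encoded mRNAs of the yeast respiratory chain and ATP synthase were compared between 3 strains of *Saccharomyces cerevisiae*. The 40 loci were chosen by name as structural subunits or electron carriers, and each was read from its mRNA entry in a table of 6952 transcript entries. They comprise 8 mRNAs of complex IV, 9 of complex III, 2 of cytochrome c, 4 of complex II, 14 of complex V with its inhibitor *INH1*, and 3 of NADH dehydrogenases. All 40 passed the filter on low counts in every comparison.

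The study asked what the poly(A)-binding protein Pab1 does for mRNA levels and translation. *PAB1* is essential, and its deletion was made viable by deletion of *PBP1*, which encodes a Pab1-interacting protein. RNA-Seq libraries were made from WT cells, from *pbp1Δ* cells in which *URA3* replaces *PBP1*, and from *pab1Δpbp1Δ* cells in which kanMX also replaces *PAB1*. All strains are in the W303 background and were grown in rich glucose medium (YEPD). There were 3 libraries of each strain. By the study's methods, the mutant libraries are separate isolates and the WT libraries technical replicates, so tests against WT rest on technical spread in that strain. The *pab1Δpbp1Δ* isolates were made from 1 *pbp1Δ* strain and grew more slowly than it, so slow growth and the genotype cannot be told apart here.

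Yeast has no proton-pumping complex I. The single-protein NADH dehydrogenases Ndi1 (on the matrix side) and Nde1 and Nde2 (on the outer side) and succinate dehydrogenase (complex II) pass electrons to ubiquinone, complex III passes them to cytochrome c, and cytochrome c oxidase (complex IV) passes them to oxygen. The F1Fo ATP synthase (complex V) uses the resulting proton gradient. On glucose these genes are kept low by carbon catabolite repression, and many are activated by the heme-activated Hap2/3/4/5 complex, of which Hap4 is the regulated part. Some subunits of complexes III, IV and V, among them cytochrome b and the catalytic core of complex IV, are encoded in mitochondrial DNA and were not analysed here.

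Expected counts added up to between 73062345 and 100361368 per library. Levels are given as counts per 1000000 (CPM) after TMM scaling, and a Benjamini-Hochberg adjusted p under 0.01 in edgeR's quasi-likelihood test counted as a change. Levels are compared between genes only as FPKM, which accounts for length. The methods name no spike-in, so a level is a proportion of the RNA sequenced in its library and not an amount per cell, and fewer cells and less RNA per cell cannot be told apart. The labels held: *PAB1* had 22 to 50 counts in *pab1Δpbp1Δ* libraries against 108388 to 144249 elsewhere, and *PBP1* 66 to 143 counts in both mutants against 22789 to 26638 in WT. Replicate 1 was the highest library of its strain for 27 of the 40 mRNAs in WT, for 33 in *pbp1Δ* and for 30 in *pab1Δpbp1Δ*. The weight of replicate 1 in the results was not tested as such, and for the members described in full the values without each library are given where they change a call.

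Loss of *PBP1* alone was accompanied by slightly lower levels of most of these mRNAs. In *pbp1Δ* against WT, 17 of 40 (42.5%) were lower, where 6.24% of the 6425 entries tested were. One member (2.5%), *CYC7*, was higher, against 5.34% of entries. The log2 fold change was negative for 37 of 40, with a median of -0.23 (range -0.57 to 0.58), and the median of all entries was 0.01. For 28 of the 40 mRNAs every *pbp1Δ* library lay below every WT library, which held for 20.5% of entries, and for 2 every *pbp1Δ* library lay above, against 21.6%. Most of these mRNAs are abundant, with 29 of the 40 in the highest of 5 equal classes of entries by WT FPKM. These 29 had a median log2 fold change of -0.23, and all 1246 entries in that class had one of -0.02, with 12.2% of them called in either direction. The number of lower members fell to 1 (*NDI1*) with the more variable *pab1Δpbp1Δ* libraries in the same fit, and to 6 without *pbp1Δ* replicate 3. Calls over all entries fell too, from 11.6% in either direction to 0.273% and 5.05%. The median of the 40 kept its sign in the alternatives run. The calls of *COX4*, *CYC1*, *RIP1*, *CYT1* and *SDH2* were lost only with all 9 libraries together. Those of *COX6*, *COR1* and *SDH1* were lost there, without *pbp1Δ* replicate 3 and without 1 or 2 other libraries, and those of *ATP1*, *ATP2*, *ATP14*, *COX5A*, *INH1*, *NDE1*, *QCR2* and *QCR6* in 6 or 7 of 13 alternatives. When 1 library was left out, the log2 fold change of *COR1* ran from -0.41 to -0.34, that of *SDH1* from -0.32 to -0.26, that of *ATP2* from -0.33 to -0.27 and that of *ATP14* from -0.36 to -0.26.

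On further loss of *PAB1* the same mRNAs moved apart. In *pab1Δpbp1Δ* against *pbp1Δ*, 6 of 40 (15%) were higher and 6 (15%) lower, close to the 18.0% and 16.7% of all 6573 entries that were higher and lower. The log2 fold changes ranged from -1.35 (*COX4*) to 1.62 (*CYC7*), with 16 positive and 24 negative values and a median of -0.14. Libraries of the strains did not overlap for 23 mRNAs, in 8 with *pab1Δpbp1Δ* above (32.5% of entries) and in 15 with it below (32.1% of entries). Abundant mRNAs in general were lower, and in the highest class the median was -0.27 for the 29 members and -0.46 for all entries. With upper-quartile normalization, under which the median over all entries was 0.21 in place of 0.03, the median of the 40 mRNAs was 0.04 and 3 were lower. Without *pab1Δpbp1Δ* replicate 1, in which many of these mRNAs were closest to *pbp1Δ*, 8 were higher and 20 lower, while leaving out any 1 of the other libraries gave 2 to 4 higher and 0 to 5 lower. The share of all entries called in either direction moved likewise, from 34.8% to 59.1% without that library and to between 13% and 29.5% without another.

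Across both deletions, *pab1Δpbp1Δ* against WT, 5 mRNAs (12.5%) were higher and 16 (40%) lower, where 21.8% and 21.6% of the 6558 entries tested were. The median log2 fold change was -0.50, from -1.76 for *COX4* to 2.19 for *CYC7*. With the replicate number as a block, 5 were higher and 22 lower, the 6 added being *ATP3*, *ATP5*, *ATP16*, *COX6*, *COX12* and *QCR6*. This comparison shares its libraries with the other comparisons and is not independent of them. Numbers of lower mRNAs lay between 10 and 25 when 1 library was left out, the highest without *pab1Δpbp1Δ* replicate 1 and the lowest without WT replicate 1 or 3.

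**Figure D1:**
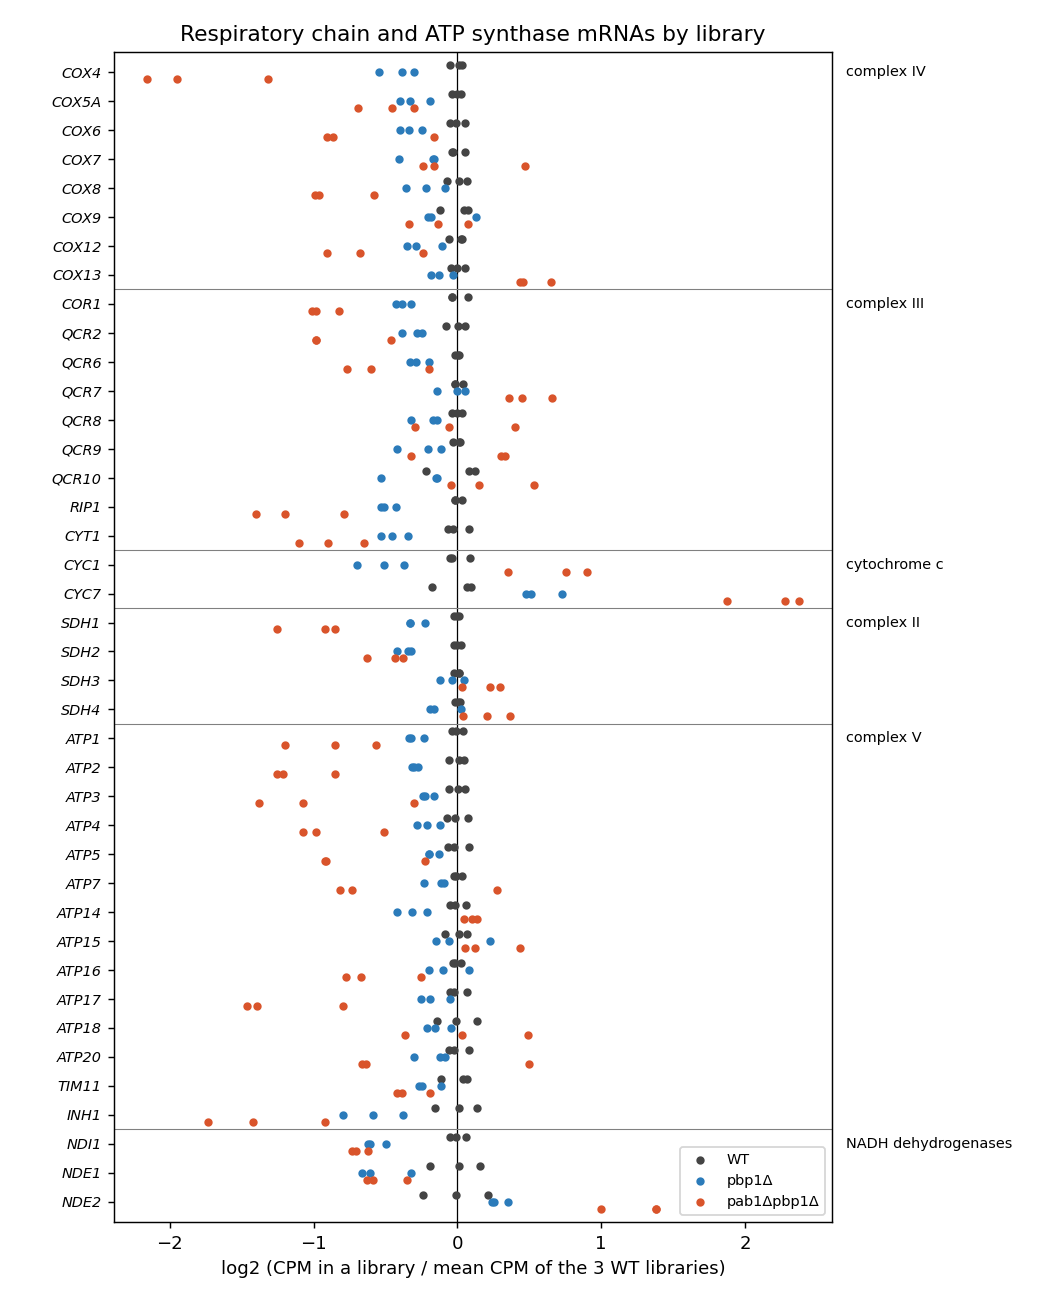
The level of each of the 40 mRNAs in each of the 9 libraries is plotted as log2 of its CPM over the mean CPM of the 3 WT libraries, with 1 point per library. The *pbp1Δ* points lie mostly to the left of the WT points, and the *pab1Δpbp1Δ* points spread from *COX4* (30.7 to 55.0 CPM against 132 to 139.8 in WT) on the left to *CYC7* (19.5 to 27.7 CPM against 4.72 to 5.69) on the right.

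**Figure D2:**
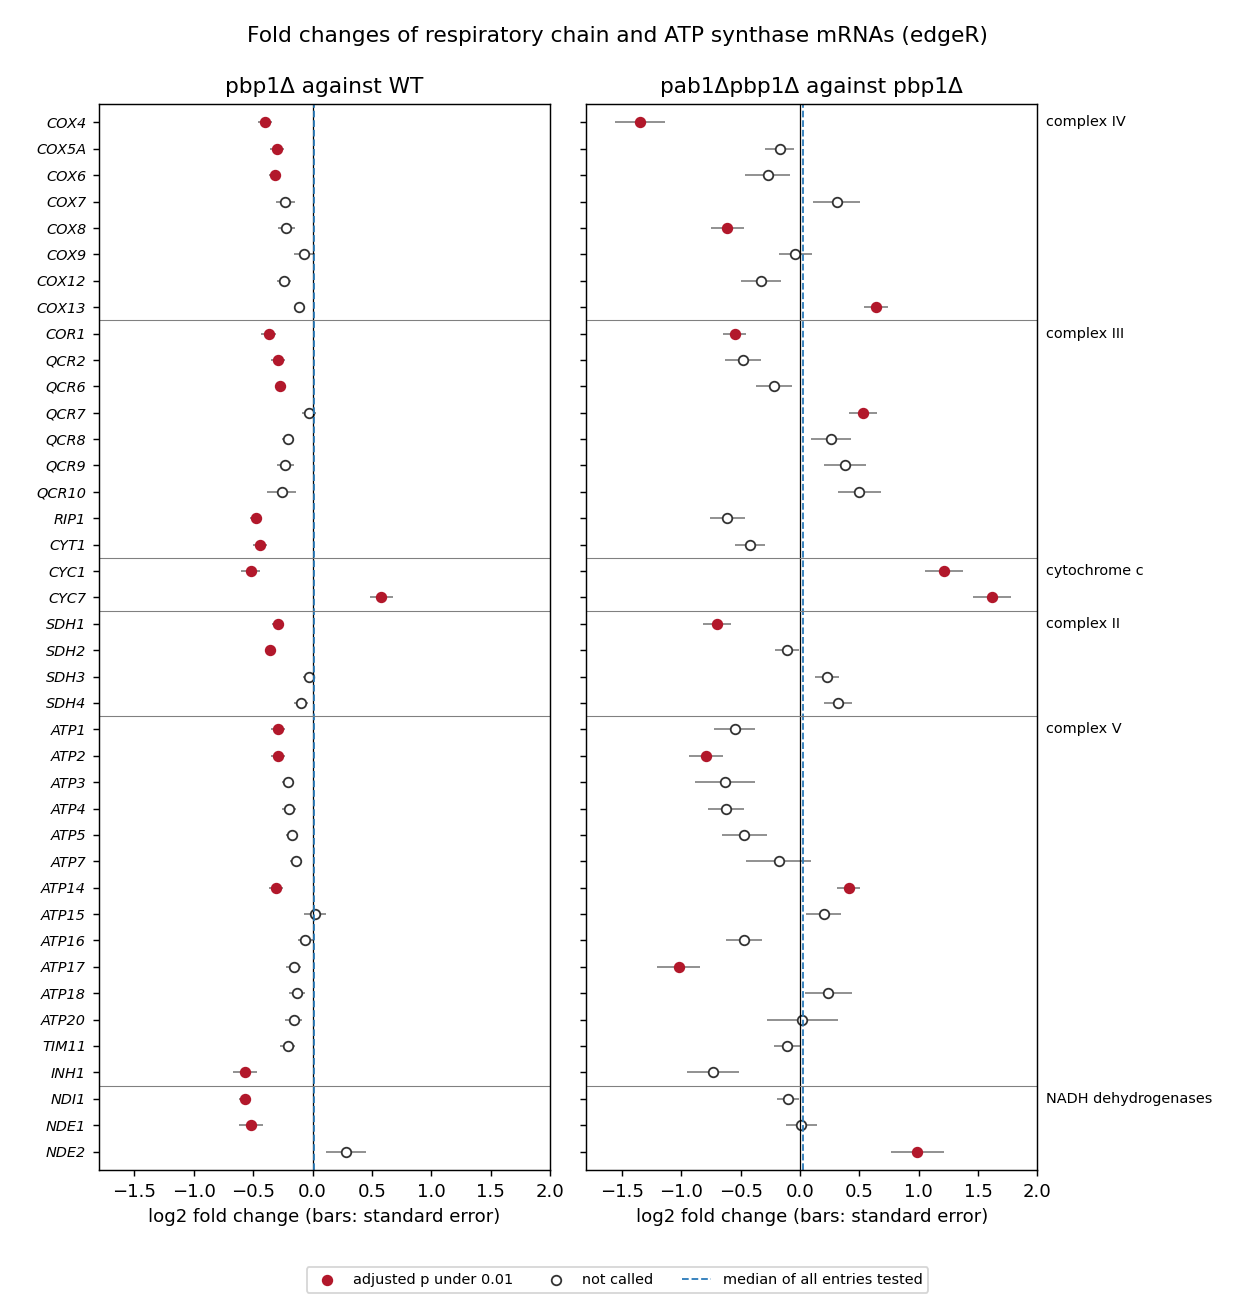
Log2 fold changes of the 40 mRNAs with their standard errors are plotted for *pbp1Δ* against WT (left) and *pab1Δpbp1Δ* against *pbp1Δ* (right), with filled points past an adjusted p of 0.01 in edgeR's quasi-likelihood test. On the left 17 filled points lie below 0 and 1 above, and on the right 6 lie on each side.

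Summed over the 40 mRNAs, the level was 6651 ± 171 CPM in WT, 5457 ± 204 in *pbp1Δ* and 4717 ± 655 in *pab1Δpbp1Δ* (SD, n = 3). The *pab1Δpbp1Δ* libraries gave 5469, 4270 and 4413 CPM, and the first of these lay inside the range of *pbp1Δ* (5307 to 5690). The order of the mutants depends on the scaling: as a share of all counts in a library, without TMM, the 40 mRNAs took 0.596% ± 0.00911 in WT, 0.511% ± 0.0278 in *pbp1Δ* and 0.561% ± 0.0479 in *pab1Δpbp1Δ*. The 14 mRNAs of complex V summed to 3281 ± 88.4 CPM in WT, 2751 ± 68.1 in *pbp1Δ* and 1927 ± 391 in *pab1Δpbp1Δ*. The *pab1Δpbp1Δ* libraries, at 2376, 1744 and 1662 CPM, all lay below the lowest *pbp1Δ* library (2705), and by share of counts its mean was also lowest there (0.228% against 0.257%), but the strains then overlapped, with 0.266% in *pab1Δpbp1Δ* replicate 1 against 0.246% to 0.268% in *pbp1Δ*. Cytochrome c went the other way, at 277 ± 15.3, 198 ± 21.9 and 462 ± 80.3 CPM, and its share of counts was likewise highest in *pab1Δpbp1Δ* (0.055% against 0.0185% in *pbp1Δ*). Such sums are led by the mRNAs with the most counts and do not describe a group evenly. *ATP2* alone had means of 1367 CPM in WT, 1114 in *pbp1Δ* and 639.8 in *pab1Δpbp1Δ*, and *CYC1* of 272, 189.8 and 438. The median of the 40 mean FPKM values, without TMM, was 154, 127 and 141.

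**Figure D3:**
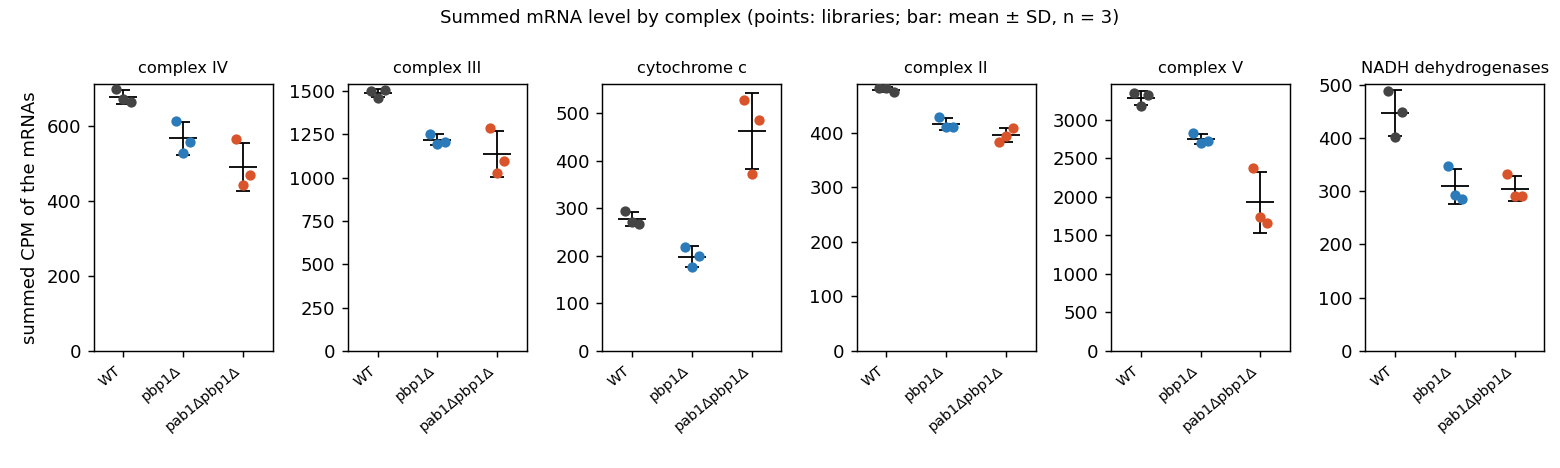
Summed CPM of the mRNAs of each complex is plotted for each library by strain, with the mean ± SD of 3 libraries. On the TMM scale WT has the highest mean for every complex except cytochrome c (by share of counts *pab1Δpbp1Δ* is also above WT for complex II, at 0.0473% against 0.0429%, and complex III, at 0.135% against 0.133%). For cytochrome c *pab1Δpbp1Δ* (373 to 528 CPM) lies above WT (266 to 295 CPM). On the TMM scale the mean of every other group is lower at each step, in sums led by the mRNAs with the most counts. By share of counts only complex V has a lower mean in *pab1Δpbp1Δ* than in *pbp1Δ*.

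Many promoters of these genes hold the core motif read by the Hap2/3/4/5 complex. TNATTGGT on either strand was found in the 400 bases before the start codon of 17 of the 40 genes (42.5%), and in 420 of 6008 genes in the RefSeq annotation of R64 (6.99%). Genes with and without a match moved in both directions: in *pab1Δpbp1Δ* against *pbp1Δ*, 4 of the 17 with a match were lower and 3 higher, and of the 23 without one 2 were lower and 3 higher. The median log2 fold change in that comparison was -0.27 with a match and -0.04 without. In *pbp1Δ* against WT it was -0.22 and -0.23, with 7 of 17 and 10 of 23 lower, and in *pab1Δpbp1Δ* against WT it was -0.61 and -0.16, with 8 of 17 and 8 of 23 lower. These differences between genes with and without a match were not tested. Matches are given here for mRNAs that differ in direction, so that rising and falling members can be read side by side. The direction is that on loss of *PAB1*, except for *NDI1*, which did not pass the test there. *ATP14*, *COR1* and *SDH1* were also lower in *pbp1Δ* than in WT. Each entry is 30 bases in the sense direction of its gene (R64), with the match in capitals (ACCAAT is the motif read on the other strand).
*COX13*, higher (chrVII:144584-144613): ttttttttcccACCAATGAgaggcggtact
*QCR7*, higher (chrIV:1496712-1496741, minus strand): atcttgttttgACCAATCAggagcgacgcg
*ATP14*, higher (chrXII:722553-722582, minus strand): gccatacacgaACCAATTAtgcatcataaa
*COX8*, lower (chrXII:910149-910178, minus strand): aaacggtttgcACCAATCAtacgagagaag
*COR1*, lower (chrII:135849-135878, minus strand): acgctttctgcACCAATGAaatgccaataa
*SDH1*, lower (chrXI:171429-171458, minus strand): ggcgggggtggACCAATCAcagcgcagaac
*ATP17*, lower (chrIV:1228370-1228399): ttacggagagaACCAATCAtatcgaaggat
*NDI1*, lower in *pbp1Δ* (chrXIII:30017-30046, minus strand): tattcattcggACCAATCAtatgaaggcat
The matches begin 213, 182 and 198 bases before the start codon in *COX13*, *QCR7* and *ATP14*, and 202, 351, 318 and 230 bases before it in *COX8*, *COR1*, *SDH1* and *ATP17*. *QCR7*, *COX8*, *SDH1*, *ATP17* and *NDI1* share the same letters, ACCAATCA, and include rising and falling mRNAs. A match is a description of the sequence and not a shown binding site. Equally, the lack of a match to these letters does not show that a gene is not bound by the complex.

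The motif of the mRNA-binding protein Puf3, which binds many mRNAs of mitochondrial proteins, was searched in the 200 bases after the stop codon. TGTANATA on the sense strand was found for 5 of the 40 genes (12.5%) and for 844 of 6008 genes (14.0%). *COX8* and *SDH1*, both lower in *pab1Δpbp1Δ*, are among the 5, with *ATP1*, *ATP18* and *TIM11*. The log2 fold changes of *ATP1*, *ATP18* and *TIM11* on loss of *PAB1* were -0.55, 0.24 and -0.11, and none passed the test. Only the matches of *COX8* and *SDH1* are shown, with the motif in capitals. Whether the motif goes with a direction of change was not tested.
*COX8* (chrXII:909679-909708, minus strand): ggatagatgtgTGTACATAgcgtgcttggt
*SDH1* (chrXI:169090-169119, minus strand): actcactaattTGTATATAtacctattaat
The *COX8* match begins 32 bases and the *SDH1* match 99 bases after the stop codon.

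Cytochrome c, the soluble carrier between complexes III and IV, has a pair of isoforms, and it was the only one of the 6 groups in which every mRNA rose on loss of *PAB1*. *CYC1* (YJR048W, chromosome X, 526335 to 526664 in R64) encodes isoform 1, the main form in aerobic cells. It was at 289, 265 and 262 CPM in WT, 210.5, 168 and 191 CPM in *pbp1Δ* and 508, 347 and 459 CPM in *pab1Δpbp1Δ*. No library overlapped between strains, with *pbp1Δ* lowest and *pab1Δpbp1Δ* highest. The log2 fold change of *CYC1* was -0.52 in *pbp1Δ* against WT (SE 0.08, edgeR adjusted p = 0.00186) and 1.21 in *pab1Δpbp1Δ* against *pbp1Δ* (SE 0.16, edgeR adjusted p = 0.000781), a 2.32-fold rise. *CYC7* (YEL039C, chromosome V, 79636 to 79977) encodes isoform 2, the form known from cells short of oxygen. It was at 5.69, 5.58 and 4.72 CPM in WT, 8.82, 7.6 and 7.42 CPM in *pbp1Δ* and 19.5, 25.8 and 27.7 CPM in *pab1Δpbp1Δ*. The libraries of the strains again did not overlap, and the level was higher at each step. *CYC7* rose with a log2 fold change of 0.58 in *pbp1Δ* against WT (SE 0.10, edgeR adjusted p = 0.00372) and of 1.62 in *pab1Δpbp1Δ* against *pbp1Δ* (SE 0.16, edgeR adjusted p = 0.000294).

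Per length, *CYC7* gave a small part of the cytochrome c mRNA. It held 1.64%, 1.75% and 1.51% of the summed FPKM of both isoforms in WT, 3.43%, 3.70% and 3.19% in *pbp1Δ* and 3.15%, 5.95% and 4.88% in *pab1Δpbp1Δ*. Both mutants lay above WT in every library, and they overlapped each other. The isoforms are paralogs between which reads could be shared. The rises of *CYC1* and *CYC7* on loss of *PAB1* kept their calls under all 13 alternatives, with log2 fold changes from 1.09 to 1.35 and from 1.52 to 1.76 when 1 of the 6 libraries was left out. In *pbp1Δ* against WT neither passed with all 9 libraries fitted together, and *CYC7* did not without *pbp1Δ* replicate 2 (log2 fold changes from 0.50 to 0.62 in such fits).

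In complex IV, *COX4* fell and *COX13* rose. *COX4* (YGL187C, chromosome VII, 149704 to 150171) encodes a structural subunit and has an intron, so the table holds a spliced and an unspliced entry. The spliced mRNA was at 139.8, 132 and 138 CPM in WT, 111, 93.9 and 105 CPM in *pbp1Δ* and 55.0, 30.7 and 35.5 CPM in *pab1Δpbp1Δ*. The strains did not overlap and the level was lower at each step. The log2 fold change was -0.40 in *pbp1Δ* against WT (SE 0.06, edgeR adjusted p = 0.00181) and -1.35 in *pab1Δpbp1Δ* against *pbp1Δ* (SE 0.21, edgeR adjusted p = 0.0014), the largest fall among the 40. The call on loss of *PAB1* was lost without *pbp1Δ* replicate 1, with log2 fold changes between -1.64 and -1.19 when 1 library was left out.

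The unspliced entry of *COX4* did not follow the spliced one. It was at 13.4, 12.3 and 10.1 CPM in WT, 11.2, 8.37 and 10.5 CPM in *pbp1Δ* and 12, 17.3 and 11.7 CPM in *pab1Δpbp1Δ*, with a log2 fold change of 0.45 on loss of *PAB1* that did not pass the test (SE 0.20, edgeR adjusted p = 0.0828). As a share of spliced and unspliced counts together, it made up 9.17%, 8.19% and 9.12% in *pbp1Δ* and 17.9%, 36.1% and 24.8% in *pab1Δpbp1Δ*, where WT had 8.75%, 8.51% and 6.80%. Every *pab1Δpbp1Δ* library lay above the others, and the library with the lowest spliced level had the highest share. In the table that joins both entries, *COX4* fell by 1.06 on the log2 scale (edgeR adjusted p = 0.00104). The entries share exon reads, so their split is an estimate. Among the other members with an intron, unspliced *QCR9* held a mean share of 4.53% in *pbp1Δ* and 4.56% in *pab1Δpbp1Δ*, and unspliced *QCR10* of 62.1% and 57.3%.

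*COX13* (YGL191W), which encodes subunit VIa, was at 101, 90.8 and 94.1 CPM in *pbp1Δ* and 162, 141 and 139 CPM in *pab1Δpbp1Δ*, with 103 ± 3.33 CPM in WT (SD, n = 3). All *pab1Δpbp1Δ* libraries were above all others. The log2 fold change was 0.64 (SE 0.10, edgeR adjusted p = 0.00165), and the call was lost without *pbp1Δ* replicate 2 or 3 (0.56 to 0.68 over such fits). *COX8* (YLR395C), for subunit VIII, was at 96, 79.6 and 87.5 CPM in *pbp1Δ* and 68.2, 51.3 and 52.4 CPM in *pab1Δpbp1Δ*. It fell by 0.61 on the log2 scale (SE 0.14, edgeR adjusted p = 0.0071), a call that was lost with upper-quartile normalization and in 5 of the 6 fits with a library fewer, all but that without *pab1Δpbp1Δ* replicate 1.

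Of the other complex IV mRNAs, *COX5A* (-0.30) and *COX6* (-0.32) were lower in *pbp1Δ* than in WT by edgeR, and on loss of *PAB1* had log2 fold changes of -0.17 and -0.27 that did not pass. *COX9* and *COX12* had values of -0.04 and -0.33 there, and *COX7*, with a positive value of 0.31 like *COX13*, also did not pass (edgeR adjusted p = 0.228). Subunit V comes in a pair of isoforms, *COX5A* for air and *COX5B* for low oxygen. *COX5B* mRNA was at 6.40, 7.32 and 6.62 CPM in WT, 8.83, 9.06 and 7.75 CPM in *pbp1Δ* and 14.2, 13.1 and 15.2 CPM in *pab1Δpbp1Δ*. It rose on loss of *PAB1* by 0.74 (SE 0.13, edgeR adjusted p = 0.00267), a call lost without *pab1Δpbp1Δ* replicate 3 or any *pbp1Δ* library (0.67 to 0.79). Its part of the summed FPKM of both isoforms was 6.60% ± 0.551 in WT, 9.88% ± 1.00 in *pbp1Δ* and 17.0% ± 0.861 in *pab1Δpbp1Δ* (SD, n = 3), with no overlap between strains. These paralogs too could share reads.

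In complex III, *COR1* fell and *QCR7* rose on loss of *PAB1*, and the other 7 mRNAs did not pass the test. *COR1* (YBL045C) encodes a core subunit. It was at 371, 371 and 401 CPM in WT, 283, 305 and 292 CPM in *pbp1Δ* and 215, 189 and 193 CPM in *pab1Δpbp1Δ*. No libraries overlapped between strains, and it fell in both comparisons, by 0.37 on the log2 scale without *PBP1* (SE 0.06, edgeR adjusted p = 0.00187) and by a further 0.55 without *PAB1* (SE 0.10, edgeR adjusted p = 0.003). *QCR7* (YDR529C), for a small subunit, was at 242, 233 and 233 CPM in WT, 245, 214 and 235 CPM in *pbp1Δ* and 373, 302 and 322 CPM in *pab1Δpbp1Δ*. WT and *pbp1Δ* overlapped, and *pab1Δpbp1Δ* was above both. It rose by 0.53 on the log2 scale (SE 0.12, edgeR adjusted p = 0.00665). Both calls on loss of *PAB1* were lost without *pab1Δpbp1Δ* replicate 3 or any *pbp1Δ* library (-0.61 to -0.52 for *COR1*, 0.44 to 0.59 for *QCR7*), and that of *COR1* also with upper-quartile normalization.

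*QCR8*, *QCR9* and *QCR10* had log2 fold changes of 0.26, 0.38 and 0.50 on loss of *PAB1* and did not pass (edgeR adjusted p from 0.044 to 0.221). Of these 3 only *QCR10* had *pab1Δpbp1Δ* libraries (25, 19.2 and 16.8 CPM) that were all above those of *pbp1Δ* (15.7, 12 and 15.6 CPM). *QCR9* passed without *pab1Δpbp1Δ* replicate 1 (0.56). *RIP1* (YEL024W) encodes the Rieske iron-sulfur protein. It was at 163, 163 and 169 CPM in WT, 123, 114 and 116 CPM in *pbp1Δ* and 95.7, 62.4 and 71.8 CPM in *pab1Δpbp1Δ*. There was no overlap between strains. *RIP1* fell by 0.48 in *pbp1Δ* (SE 0.05, edgeR adjusted p = 0.000173), and its log2 fold change of -0.61 on loss of *PAB1* missed the threshold (SE 0.15, edgeR adjusted p = 0.0111; past it in 4 of 13 alternatives). *CYT1*, for cytochrome c1, *QCR2*, for the other core subunit, and *QCR6* were also lower in *pbp1Δ* than in WT (-0.44, -0.29 and -0.27), and their values on loss of *PAB1* were -0.42, -0.48 and -0.22, none past the test.

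In complex II, *SDH1* fell on loss of *PAB1* and the other 3 mRNAs did not pass the test. *SDH1* (YKL148C), for the flavoprotein, was at 172, 173 and 169 CPM in WT, 137, 147 and 137 CPM in *pbp1Δ* and 72.0, 95.3 and 90.9 CPM in *pab1Δpbp1Δ*. The strains did not overlap. *SDH1* fell by 0.29 in *pbp1Δ* against WT (SE 0.05, edgeR adjusted p = 0.00337) and by 0.70 in *pab1Δpbp1Δ* against *pbp1Δ* (SE 0.12, edgeR adjusted p = 0.00264). The latter call was lost with upper-quartile normalization, without *pab1Δpbp1Δ* replicate 3 and without any *pbp1Δ* library (-0.78 to -0.59). *SDH2*, for the iron-sulfur protein, was lower in *pbp1Δ* (-0.36, edgeR adjusted p = 0.000608) and had a value of -0.11 on loss of *PAB1*. The anchor mRNAs *SDH3* and *SDH4* had values of 0.23 and 0.32 there (edgeR adjusted p = 0.0902 and 0.0461), neither past the test, though *SDH4* passed without *pab1Δpbp1Δ* replicate 1 (0.40).

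In complex V, 10 of the 14 mRNAs had negative log2 fold changes on loss of *PAB1*, with a median of -0.47, and 13 of 14 had them in *pbp1Δ* against WT, with a median of -0.18. Most of the 14 lie in the highest class by WT FPKM. All 1246 entries of that class had a median of -0.46 on loss of *PAB1*, near that of complex V, and of -0.02 in *pbp1Δ* against WT. *ATP2* (YJR121W, chromosome X, 647607 to 649142) encodes the catalytic beta subunit of F1 and had the highest FPKM of the 40 in WT (762). It was at 1379, 1314 and 1408 CPM in WT, 1133, 1101 and 1109 CPM in *pbp1Δ* and 757, 572 and 590.5 CPM in *pab1Δpbp1Δ*. Again no libraries overlapped, and the level was lower at each step. *ATP2* fell by 0.29 in *pbp1Δ* (SE 0.06, edgeR adjusted p = 0.00682) and by 0.79 on loss of *PAB1* (SE 0.14, edgeR adjusted p = 0.00283), a 1.73-fold fall. *ATP17* (YDR377W), for subunit f of Fo, was at 66.6, 57.7 and 60.4 CPM in *pbp1Δ* and 39.7, 25 and 26.2 CPM in *pab1Δpbp1Δ*, and at 66.6 to 72.1 CPM in WT. It fell 2.02-fold on loss of *PAB1* (log2 fold change -1.02, SE 0.18, edgeR adjusted p = 0.00255), and its value in *pbp1Δ* against WT was -0.16.

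*ATP14* (YLR295C), for subunit h, was the 1 mRNA of complex V that rose past the test. It was at 201, 186 and 191 CPM in WT, 167, 144 and 155 CPM in *pbp1Δ* and 199, 207 and 212 CPM in *pab1Δpbp1Δ*. The *pbp1Δ* libraries were below all others, and *pab1Δpbp1Δ* overlapped WT. *ATP14* fell by 0.31 in *pbp1Δ* (SE 0.06, edgeR adjusted p = 0.00625) and rose by 0.41 on loss of *PAB1* (SE 0.10, edgeR adjusted p = 0.00841). The calls of *ATP2*, *ATP17* and *ATP14* on loss of *PAB1* were lost without *pab1Δpbp1Δ* replicate 3 or any *pbp1Δ* library, and that of *ATP14* also without *pab1Δpbp1Δ* replicate 2 (-0.93 to -0.72, -1.26 to -0.90 and 0.36 to 0.45 over fits with a library fewer).

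*ATP15*, *ATP18* and *ATP20* also had positive values on loss of *PAB1*, of 0.20, 0.24 and 0.02, and none passed. *ATP20* (YPR020W), for subunit g, which takes part in joining ATP synthase into dimers, shows how much replicate 1 weighs: it was at 28.3, 24.4 and 27.7 CPM in *pbp1Δ* and at 42.5, 19.0 and 19.4 CPM in *pab1Δpbp1Δ*. The first of these was above all *pbp1Δ* libraries and the others below them, and without it the log2 fold change was -0.48 (edgeR adjusted p = 0.00137). *ATP7*, for a stator subunit, had the same pattern, at 228, 107 and 113 CPM against 159.7 to 176 CPM in *pbp1Δ*. *ATP1*, *ATP3*, *ATP4*, *ATP5* and *ATP16* had values from -0.63 to -0.47 with every *pab1Δpbp1Δ* library below every *pbp1Δ* library, which held for 32.1% of all entries. None of them passed the test, the nearest being *ATP4* (edgeR adjusted p = 0.0106). *TIM11*, for subunit e, had a value of -0.11.

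*INH1* (YDL181W) encodes the inhibitor that keeps ATP synthase from running backwards. It was at 32.6, 29.9 and 26.6 CPM in WT, 22.8, 17.1 and 19.8 CPM in *pbp1Δ* and 15.7, 11.1 and 8.92 CPM in *pab1Δpbp1Δ*. The strains did not overlap. *INH1* fell by 0.57 in *pbp1Δ* (SE 0.10, edgeR adjusted p = 0.00436), a call lost in 6 of 13 alternatives, 4 of them fits without a library (-0.68 to -0.48). On loss of *PAB1* its log2 fold change was -0.73 (SE 0.22, edgeR adjusted p = 0.0211), past the threshold in 4 of 13 alternatives. Its FPKM was 9.47% ± 1.10 of that of *ATP2* in WT, 7.77% ± 1.01 in *pbp1Δ* and 8.01% ± 1.27 in *pab1Δpbp1Δ* (SD, n = 3), and these ranges overlapped between strains.

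Of the NADH dehydrogenases, *NDI1* and *NDE1* fell in *pbp1Δ*, and *NDE2* rose on the further loss of *PAB1*. *NDI1* (YML120C, chromosome XIII, 28266 to 29807) was at 122, 113 and 116 CPM in WT, 82.8, 76.0 and 76.8 CPM in *pbp1Δ* and 71.9, 70.3 and 76.0 CPM in *pab1Δpbp1Δ*. Both mutants were below WT in every library and overlapped each other. *NDI1* fell by 0.57 in *pbp1Δ* against WT (SE 0.05, edgeR adjusted p = 9.3e-05), the 1 call of the 17 that held under all 13 alternatives, and had a value of -0.10 on loss of *PAB1* that turned to 0.08 with upper-quartile normalization. *NDE1* (YMR145C) was at 366, 289 and 332 CPM in WT, 263, 216 and 208 CPM in *pbp1Δ* and 258, 219 and 213 CPM in *pab1Δpbp1Δ*. It fell by 0.52 in *pbp1Δ* (SE 0.10, edgeR adjusted p = 0.00589; lost in 6 of 13 alternatives, -0.62 to -0.45 when 1 library was left out) and had a value of 0.01 on loss of *PAB1*. Each step was tested separately, and the difference between the steps was not tested.

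*NDE2* (YDL085W), the paralog of *NDE1*, was the least abundant of the 40. It was at 1.01, 0.865 and 0.739 CPM in WT, 1.04, 1.03 and 1.11 CPM in *pbp1Δ* and 1.74, 2.27 and 2.27 CPM in *pab1Δpbp1Δ*, where it was above all other libraries. It rose by 0.99 on loss of *PAB1* (SE 0.22, edgeR adjusted p = 0.00691). It lies in the lowest of the 5 classes by WT FPKM, in which the median of all 1246 entries was 1.01 and 45.2% were called. The call was lost in 6 of 13 alternatives, among them each fit without a library other than *pab1Δpbp1Δ* replicate 1 (0.92 to 1.10). Its part of the summed FPKM of *NDE1* and *NDE2* was 0.290% ± 0.0448 in WT, 0.509% ± 0.0707 in *pbp1Δ* and 1.00% ± 0.234 in *pab1Δpbp1Δ* (SD, n = 3).

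The genes of the Hap complex and other factors of the same pathway were read from further gene lists. *HAP4*, the regulated activation subunit, was at 63.2, 58.9 and 55.6 CPM in WT, 45.9, 39.0 and 38.8 CPM in *pbp1Δ* and 106, 111 and 91.7 CPM in *pab1Δpbp1Δ*. No overlap between strains was seen, with *pbp1Δ* lowest and *pab1Δpbp1Δ* highest. *CYC1* had the same order, and it is not among the 17 genes with a match to the Hap motif. On loss of *PAB1* 24 of the 40 members had negative log2 fold changes. Whether the level of *HAP4* goes with that of any member was not tested. *HAP4* fell by 0.52 in *pbp1Δ* (SE 0.07, edgeR adjusted p = 0.00113) and rose by 1.33 on loss of *PAB1* (SE 0.12, edgeR adjusted p = 0.000196), the latter under all 13 alternatives. *HAP5*, a DNA-binding subunit, rose by 0.82 (edgeR adjusted p = 0.00144; lost without *pbp1Δ* replicate 2 or 3, 0.75 to 0.90). *HAP2* was lower in *pbp1Δ* (-0.28, lost in 6 of 13 alternatives) and had a value of -0.04 on loss of *PAB1*. *HAP3* (0.47) and the heme-responsive activator *HAP1* (-0.21) did not pass there.

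**Figure D4:**
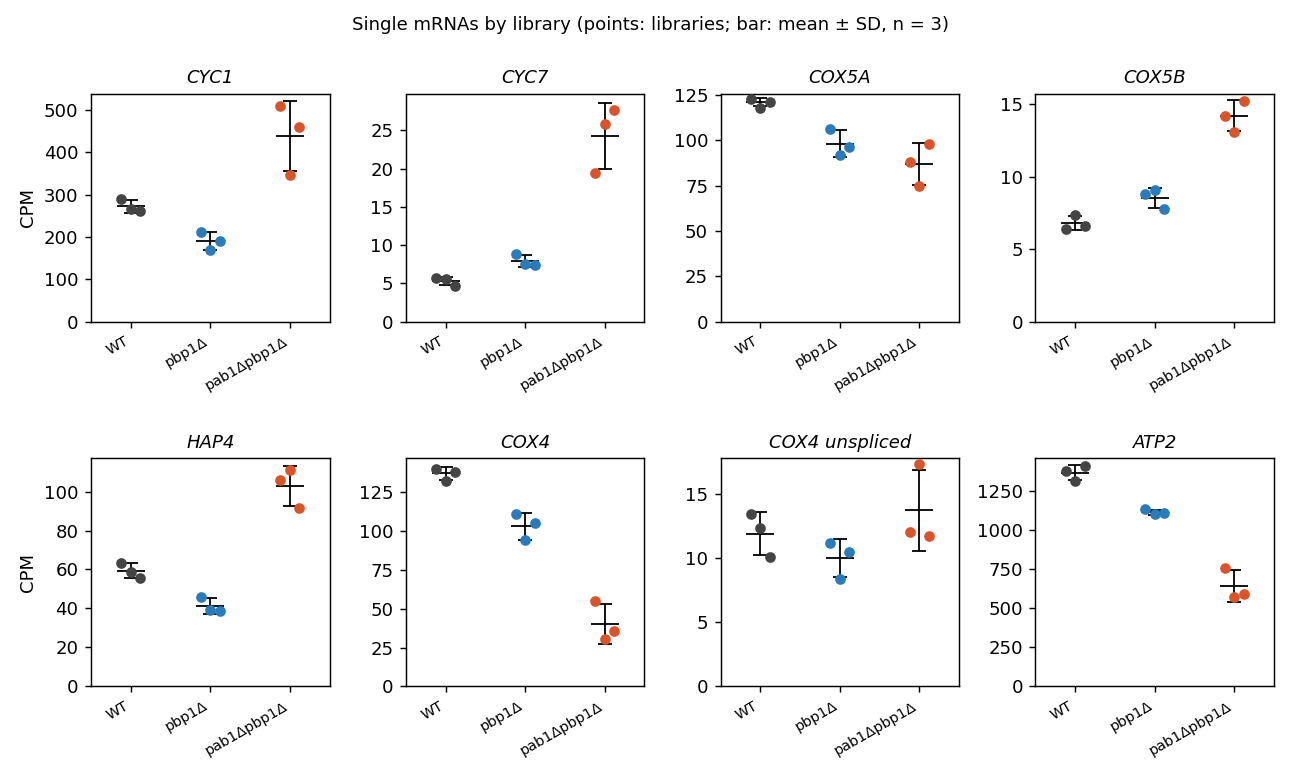
CPM of 8 transcript entries is plotted for each library by strain, with the mean ± SD of 3 libraries. *CYC1* and *HAP4* are lowest in *pbp1Δ* and highest in *pab1Δpbp1Δ*, *CYC7* and *COX5B* have higher means at each step, spliced *COX4* and *ATP2* lower ones, and unspliced *COX4* (8.37 to 17.3 CPM) overlaps in part between strains.

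Factors that assemble these complexes are encoded by other nuclear genes, which are given here as a description with no test of the lists. For complex IV, 12 of 25 assembly mRNAs were higher and 0 lower on loss of *PAB1* by edgeR (median 0.60), where 18.0% of all entries were higher, and none was lower at an unadjusted p under 0.05 or by DESeq2. In *pbp1Δ* against WT 0 were higher and 6 lower by edgeR (median -0.18, where 6.24% of all entries were lower), with 1 higher at an unadjusted p under 0.05 and 0 by DESeq2. *COX17*, for the copper chaperone, rose by 1.35 (edgeR adjusted p = 0.000455; 14.8 ± 1.67 to 37.6 ± 6.49 CPM, SD, n = 3) under all 13 alternatives, and *COA2* by 1.45 (edgeR adjusted p = 0.00463; lost without any *pbp1Δ* library, 0.99 to 1.65). For complex III and cytochrome c, 2 of 8 rose, *CYC3*, for the lyase that attaches heme to cytochrome c (0.90, edgeR adjusted p = 0.00044), and *CBP4* (0.84, edgeR adjusted p = 0.00435), while 6 of 8 were lower in *pbp1Δ* (median -0.48). Of 6 complex II assembly mRNAs 3 rose, among them *SDH7* (1.36, edgeR adjusted p = 0.000242) and *EMI5* (1.09, edgeR adjusted p = 0.000455), and 1 was lower in *pbp1Δ*. For ATP synthase, 2 of 7 (28.6%) rose, *ATP10* (1.04, edgeR adjusted p = 0.00652) and *FMC1* (0.96, edgeR adjusted p = 0.00403), and 2 (28.6%) were lower in *pbp1Δ*. Of these, *CBP4* and *ATP10* lost the call without *pab1Δpbp1Δ* replicate 3 and, like *FMC1*, without any *pbp1Δ* library (0.68 to 0.97, 0.80 to 1.27 and 0.71 to 1.07), and *ATP10* also without *pab1Δpbp1Δ* replicate 2. The shares of all entries, 18.0% higher on loss of *PAB1* and 6.24% lower in *pbp1Δ*, apply to these short lists too. In lists this short, 2 of 8 and 2 of 7 higher mRNAs are near the 18.0%.

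Further subunits, regulators and isoforms gave 5 of 10 higher and 0 lower on loss of *PAB1* by edgeR, with none lower at an unadjusted p under 0.05 or by DESeq2. *COX26*, for a small complex IV subunit, rose by 2.65 (edgeR adjusted p = 0.000549; 5.64 ± 0.807 to 35.3 ± 17.1 CPM, SD, n = 3) under all 13 alternatives. *SHH3*, a paralog of *SDH3*, rose by 3.29 from a low level (0.308 ± 0.0882 to 2.99 ± 1.5 CPM, SD, n = 3; edgeR adjusted p = 0.00115; lost without *pbp1Δ* replicate 1, 2.98 to 3.65). The others were *COX5B*, *STF1* and *STF2*. The shares of higher mRNAs in the lists that follow were near or below the 18.0% of all entries. Of 14 genes for translation or stability of the mitochondrially encoded mRNAs, 2 (14.3%) rose, *ATP22* (1.18, edgeR adjusted p = 0.000871) and *PET54* (0.63, edgeR adjusted p = 0.00325), and of 11 for coenzyme Q synthesis 2 (18.2%) rose, *COQ11* (0.76, edgeR adjusted p = 0.00264) and *COQ9* (0.63, edgeR adjusted p = 0.00304). *PET54* and *COQ9* lost the call without *pab1Δpbp1Δ* replicate 3 and, like *COQ11*, without any *pbp1Δ* library (0.54 to 0.70, 0.52 to 0.71 and 0.61 to 0.84).

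Falls were found among mRNAs for heme synthesis and for carriers. Of 8 heme synthesis mRNAs, 3 were lower on loss of *PAB1* by edgeR and 0 higher, where 16.7% of all entries were lower, with 2 higher at an unadjusted p under 0.05 and 0 by DESeq2. *HEM15*, for ferrochelatase, fell by 1.14 (edgeR adjusted p = 0.000249; 114 ± 6.24 to 51.5 ± 5.22 CPM, SD, n = 3) under all 13 alternatives, and *HEM14* by 0.72 (edgeR adjusted p = 0.00147; lost without *pbp1Δ* replicate 1 or 2, -0.81 to -0.67). Of 7 carriers of nucleotides, phosphate or the outer membrane, 3 (42.9%) were lower and 1 (14.3%) higher, where 16.7% and 18.0% of all entries were. *PIC2*, for a phosphate and copper carrier, rose by 1.71 (edgeR adjusted p = 4.46e-05) under all 13 alternatives. For *AAC3*, the ADP/ATP carrier of low oxygen, WT had 5.99 ± 0.494 CPM, *pbp1Δ* 10.2 ± 1.07 and *pab1Δpbp1Δ* 5.35 ± 0.295 (SD, n = 3). It rose by 0.77 in *pbp1Δ* (edgeR adjusted p = 0.000692) and fell by 0.92 on loss of *PAB1* (edgeR adjusted p = 0.00183; lost without *pbp1Δ* replicate 2 or 3, -0.99 to -0.84), unlike *CYC7* and *COX5B*, the other mRNAs named here for low oxygen.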

How the data were processed

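The expected counts were deposited by the authors as RSEM 1.3.0 estimates per transcript, from Bowtie 1.0.0 alignments of single-end reads to a yeast transcriptome (R64) that held pre-mRNAs with introns beside the spliced forms, with no normalization. The FPKM values, also made by the authors with RSEM, are scaled to effective transcript length and aligned reads. Tools and build follow the submitters' processing notes and the study's methods, which do not say whether counting used strand. At 73062345 or more counts per library, counting error was small for all members but *NDE2*.

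Each count was rounded, and edgeR 4.0.16 was run in R 4.3.3 (quasi-likelihood test, robust, TMM scaling, filterByExpr with a minimum count of 10), on the 6 libraries of each pair of strains. Benjamini-Hochberg adjustment ran over all entries tested, with a threshold of 0.01. A standard error is the log2 fold change over the root of the F statistic. SDs are over the 3 libraries of a strain. Figures were drawn in Python 3.11.15 with matplotlib 3.10.9. The fits were tried on counts simulated with the means and spread of the *pbp1Δ* libraries. Such counts do not hold the wider spread of the *pab1Δpbp1Δ* libraries.

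The members and gene lists were chosen with earlier results of these data known. Named in full are, per complex, up to 3 members with the largest changes on loss of *PAB1*, up to 6 with the largest changes in *pbp1Δ* against WT, isozyme pairs, members against their group's direction, the Hap regulators, *COX5B*, and up to 2 genes of each other list. *STF1* and *STF2*, *ATP7* and the remaining members are given in addition. Motifs were searched in the RefSeq R64 genome, the build the labels name. No member shared its counts with another entry, but paralogs can share reads.

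Alternatives were RLE and upper-quartile scaling, no filter, DESeq2 1.42.0, all 9 libraries in the fit, the table per locus, a replicate block, a threshold of 0.05 and leaving out each library. Correlations of the deviations of same-numbered libraries across entries were 0.16 to 0.225 in *pab1Δpbp1Δ* against WT. They were 0.0318 to 0.269 in *pab1Δpbp1Δ* against *pbp1Δ* and -0.039 to 0.608 in *pbp1Δ* against WT. No cutoff was set and libraries of unlike number were not compared, so pairing was not shown for any comparison.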

Additional observations from a re-analysis of the deposited data

How the results depend on the processing

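RLE scaling, no filter on low counts and the table per locus kept all counts of changed members within 1.5 times. In *pab1Δpbp1Δ* against *pbp1Δ* (6 higher and 6 lower), 3 were lower with upper-quartile scaling, 10 with DESeq2, 11 with all 9 libraries in the fit and 13 at an adjusted p under 0.05. Leaving out 1 library gave 2 to 8 higher and 0 to 20 lower, the most without *pab1Δpbp1Δ* replicate 1 and the fewest lower without *pbp1Δ* replicate 1, where edgeR called 0 lower and 3 higher, with 12 lower at an unadjusted p under 0.05. Over all entries the calls in these fits ran from 13% to 59.1%. In *pbp1Δ* against WT (1 higher and 17 lower), 10 were lower with upper-quartile scaling, 1 with all 9 libraries in the fit, which called 0 higher (1 at an unadjusted p under 0.05), and 26 at an adjusted p under 0.05. Leaving out 1 library gave 0 to 1 higher and 6 to 22 lower. In *pab1Δpbp1Δ* against WT (5 higher and 16 lower), it gave 1 to 7 higher and 10 to 25 lower. Fits with a library fewer also have fewer degrees of freedom.

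With the replicate block, 4 members were higher and 9 lower in *pab1Δpbp1Δ* against *pbp1Δ*, where *ATP14* and *NDE2* lost the call. In *pbp1Δ* against WT 1 was higher and 25 lower. In *pab1Δpbp1Δ* against WT 5 were higher and 22 lower, and no call made without the block was lost. Same-numbered libraries are not shown to be paired in any of these comparisons.

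Among the genes named in full, log2 fold changes that turned sign were all small and not called as reported. The signs of the remaining members under the alternatives were not followed. On loss of *PAB1*, *ATP20* (0.02) was -0.09 with the replicate block and -0.48 to 0.21 when 1 library was left out, *ATP18* -0.01 to 0.42 and *NDE1* -0.08 to 0.11 in such fits, *NDI1* 0.08 with upper-quartile scaling, and *HAP2* 0.14 with it and -0.19 to 0.08 without 1 library. In *pbp1Δ* against WT, *QCR7* and *SDH3* were 0.02 and 0.01 with upper-quartile scaling and -0.07 to 0.03 and -0.07 to 0.01 without 1 library, *ATP15* -0.10 to 0.09 and *HAP3* -0.01 to 0.10. The causes were not tested. Of the other log2 fold changes followed for the named genes under these alternatives, 990 kept direction and side of the threshold, 126 lost the call and 29 gained it. Medians moved by more than the spread between replicates in 9 cases and by less in 186. Depth limits only the lowest mRNAs, *NDE2* and *SHH3*.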
